A study of Mus musculus with 6 samples.

Results

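The microRNAs described here come from the miR-199, miR-214, miR-143 and miR-145 hairpins, which in liver are known mainly from stellate cells, fibroblasts and smooth muscle. They were chosen by name: every entry of mmu-miR-199a, miR-199b, miR-214, miR-143 and miR-145 with any copy number or arm, which gave 8 of the 695 mature mouse microRNAs in the table. Of the 8, 5 belong to miR-199 and miR-214 (miR-199a-3p, miR-199a-5p, miR-199b*, miR-214 and miR-214*) and 3 to miR-143 and miR-145 (miR-143, miR-145 and miR-145*). An asterisk marks the arm of a hairpin that was taken as the less abundant one when it was named. The other arm of miR-143 was not analysed here, and that of miR-199b has no entry of its own name.

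The samples were 3 liver tumours and 3 pieces of normal-looking liver lying next to them, all from C57BL/6J mice aged 6 months. Every mouse, and so the adjacent liver too, had received 3E10 particles of the adeno-associated virus vector AAV-Rian-CMV, which targets the Rian gene, through the superficial temporal vein on the day after birth. Liver of mice without vector was not analysed here, so adjacent liver is the only control. RNA of each piece was hybridised to a 1-colour microRNA array, and the numbers 1293, 1309 and 1316 join a tumour with the liver beside it. Whether each tumour is from its own mouse is not given by the labels, and p-values measure only the spread between these pieces.

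The miR-199 and miR-214 hairpins are transcribed in mesenchymal cells, and mouse Mir199a-2 and Mir214 lie together within the long non-coding RNA gene Dnm3os. miR-143 and miR-145 are cut from another shared transcript and are best known for holding smooth muscle cells in their contractile state. Both groups are used as signs of stellate cells, myofibroblasts and vessel walls in liver, while miR-199a-3p and miR-214 are also among the microRNAs often reported as lowered in liver cancer. In pieces of tissue, fewer cells of a type and less RNA per cell cannot be told apart.

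The sequences show which signals an array probe can separate. RefSeq (GRCm38.p6) listed 7 mature entries for the 4 hairpins Mir199a-1, Mir199a-2, Mir199b and Mir214, and these amounted to 4 distinct sequences, printed here 5′ to 3′ with the seed, bases 2 to 8, in capitals. In the naming of the table, miR-214 is the 3p arm and miR-214* the 5p arm.
miR-199a-3p: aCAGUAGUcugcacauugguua
miR-199a-5p: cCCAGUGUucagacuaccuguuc
miR-214-3p: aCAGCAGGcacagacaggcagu
miR-214-5p: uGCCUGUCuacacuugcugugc
The miR-199a-3p sequence is given by 3 hairpins, Mir199a-1, Mir199a-2 and Mir199b, so the value of miR-199a-3p sums over these genes, and miR-199b-3p is the same molecule. The 5p arms of miR-199a and miR-199b are nearly identical, and miR-199b* is the 5p arm, so how signal splits between miR-199a-5p and miR-199b* is uncertain. The seed of miR-214-3p is shared with miR-761.

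The next pair shows where both arms sit in the hairpins that lie side by side on the plus strand of chromosome 1 in GRCm38.p6, with the mature arms in capitals. Mir199a-2 is at chr1:162217814-162217923 and Mir214 at chr1:162223368-162223477, 5444 bases apart, both inside Dnm3os and within an annotated span of Dnm3.
Mir199a-2: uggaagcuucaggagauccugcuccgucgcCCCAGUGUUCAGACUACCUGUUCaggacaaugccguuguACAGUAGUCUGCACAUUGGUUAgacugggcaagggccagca
Mir214: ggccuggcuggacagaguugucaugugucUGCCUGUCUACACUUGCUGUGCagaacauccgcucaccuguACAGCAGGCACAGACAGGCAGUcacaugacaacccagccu
In the same annotation Mir199a-1 lies within Dnm2 on chromosome 9 and Mir199b within Dnm1 on chromosome 2.

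All values are log2 values that the authors obtained with RMA, a method that corrects background, equalises the arrays and sums over probes. The median of an array lay between 6.39 and 6.44, and values close to this may be background, where folds are understated. miR-122, the defining microRNA of hepatocytes, ranged from 14.75 to 14.82 over the adjacent pieces and from 14.42 to 14.82 over the tumours. Adjacent arrays correlated at 0.995 to 0.996 with each other over all microRNAs. Tumours 1309 and 1316 correlated with the adjacent arrays at 0.88 to 0.94, but tumour 1293 at 0.80, and that array stood apart from the rest. Calls below are therefore also given without it where they change, as are several list medians. Many other values are given by pair.

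The first comparison asked whether these microRNAs differed between tumour and adjacent liver. In every pair miR-199a-3p, miR-214 and miR-143 were lower in the tumour than in the liver next to it, and their tumour and adjacent values did not overlap. The 2 miR-199 5p entries, miR-199a-5p and miR-199b*, were lower in tumours 1309 and 1316 only, while miR-214*, miR-145 and miR-145* lay near the array median and were above their adjacent values in tumour 1293 alone. None of the 8 passed an adjusted p of 0.05 in limma over all 6 arrays, where 20 of the 695 microRNAs did (2.88%; 0.288% lower and 2.59% higher in tumours). At an unadjusted limma p below 0.05, 3 of the 8 were lower and 0 higher, where 14.1% of all microRNAs were lower. Groups did not overlap for the same 3 of 8, lower in tumours, against 22.9% of all microRNAs in that direction. A lower mean in tumours was found for 5 of the 8 and for 59.6% of all microRNAs, a share of the members close to that background.

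Among the 3p arms, mmu-miR-199a-3p, which is known to restrain the growth factor receptor MET and mTOR in human liver cancer cells, showed the largest difference. It measured 8.06, 8.28 and 8.21 in adjacent liver 1293, 1309 and 1316, and 6.94, 7.61 and 7.46 in the tumours of the same numbers. All tumours lay below all adjacent pieces, and tumour 1293 was the lowest. The log2 fold change was -0.85 ± 0.18 (SE; limma adjusted p = 0.089; unadjusted p = 0.0033), so that tumours held 55.5% of the adjacent level (95% interval 40.9 to 75.3). Only 7 of the 695 microRNAs had a more negative difference.

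The second 3p arm, mmu-miR-214, is cut from the hairpin that shares the Dnm3os transcript with Mir199a-2 and is known for its rise in activated stellate cells and fibrosis. Adjacent liver gave 7.02, 7.17 and 7.11, and tumours gave 6.15, 6.81 and 6.75, in the order 1293, 1309 and 1316. The groups were apart, with tumour 1293 again lowest and below the array median. The log2 fold change was -0.53 ± 0.18 (SE; limma adjusted p = 0.18), or 69.2% of the adjacent level (95% interval 51.0 to 94.0). miR-761, which has the seed of miR-214 but a gene of its own, averaged 6.17 ± 0.06 in adjacent liver and 6.12 ± 0.02 in tumours (SD, n = 3), near the lower end of the scale in both.

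The 5p arms of miR-199 behaved differently in 1 tumour. miR-199a-5p, known from lung fibrosis, where it represses caveolin, measured 7.04, 7.06 and 7.06 in adjacent liver and 7.04, 6.76 and 6.72 in tumours. Tumours 1309 and 1316 were below all adjacent pieces, while tumour 1293 lay among them. Its log2 fold change was -0.21 ± 0.10 (SE; limma adjusted p = 0.30). The values of miR-199b* were 7.06, 7.18 and 7.16 in adjacent liver and 7.09, 6.80 and 6.70 in tumours, which is the same order of samples in tumours, with 1293 highest and among the adjacent pieces. Its log2 fold change was -0.27 ± 0.11 (SE; limma adjusted p = 0.26). The passenger arm miR-214* measured 6.23, 6.40 and 6.37 in adjacent liver and 6.58, 6.39 and 6.34 in tumours, a difference of 0.10 ± 0.09 (SE; limma adjusted p = 0.59). Only tumour 1293 was above the adjacent values, and the groups overlapped.

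**Figure D1:**
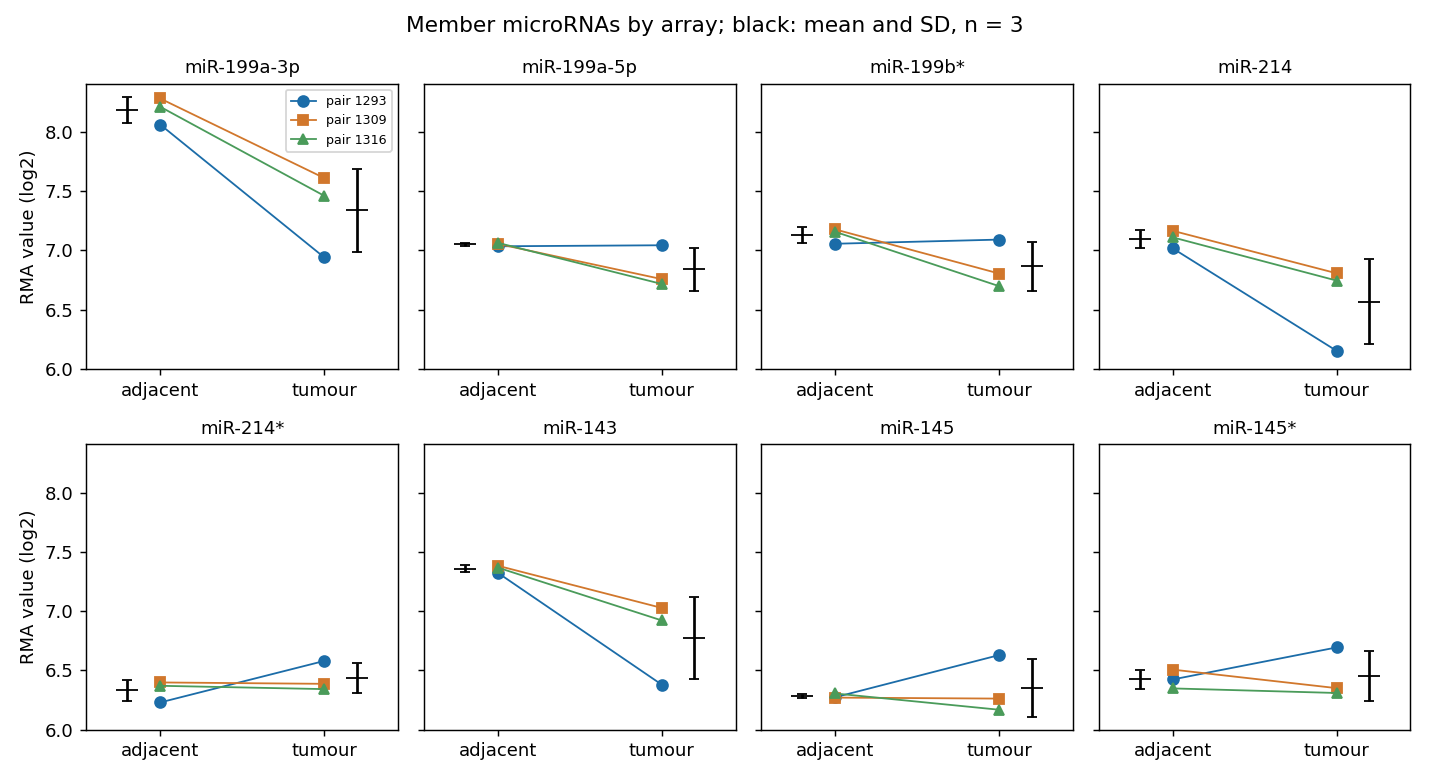
Log2 RMA value of each of the 8 microRNAs (vertical axis) in adjacent liver and tumour (horizontal axis), with a line for each pair and black bars for mean and SD of 3 arrays. Lines of all pairs slope down for miR-199a-3p, miR-214 and miR-143, whereas in the other 5 panels the line of pair 1293 is flat or slopes up.

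In the other cluster, mmu-miR-143, which acts in smooth muscle and is also expressed in stellate cells, resembled miR-214. It measured 7.33, 7.38 and 7.37 in adjacent liver and 6.38, 7.03 and 6.92 in tumours 1293, 1309 and 1316. The adjacent pieces lay within 0.06 of each other, all tumours were lower, and tumour 1293 was near the array median. The log2 fold change was -0.58 ± 0.17 (SE; limma adjusted p = 0.13), or 66.7% of the adjacent level (95% interval 50.0 to 89.2).

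mmu-miR-145, the arm known for driving smooth muscle differentiation, had no signal clearly above the lower end of the scale. Adjacent liver gave 6.27, 6.27 and 6.30, below the array median, and tumours gave 6.63, 6.26 and 6.17. Its other arm, miR-145*, measured 6.42, 6.51 and 6.35 in adjacent liver and 6.69, 6.35 and 6.31 in tumours. In both, tumour 1293 was above all adjacent pieces and the groups overlapped. The differences were 0.07 ± 0.12 and 0.03 ± 0.12 (SE) on the log2 scale, with limma adjusted p-values of 0.79 and 0.92, and their intervals ran from -0.23 to 0.38 and from -0.26 to 0.31.

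The spread was uneven. Among the 8, the SD ran from 0.02 to 0.11 in adjacent liver and from 0.13 to 0.36 in tumours, and for each of them the tumours varied more. Over all 695 microRNAs the typical SD, taken as the median, was 0.14 in tumours and 0.05 in adjacent liver. For miR-199a-3p, miR-214 and miR-143, tumour 1293 lay 0.60, 0.62 and 0.60 below the mean of the other tumours, and for the remaining 5 it lay 0.22 to 0.42 above.

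**Figure D2:**
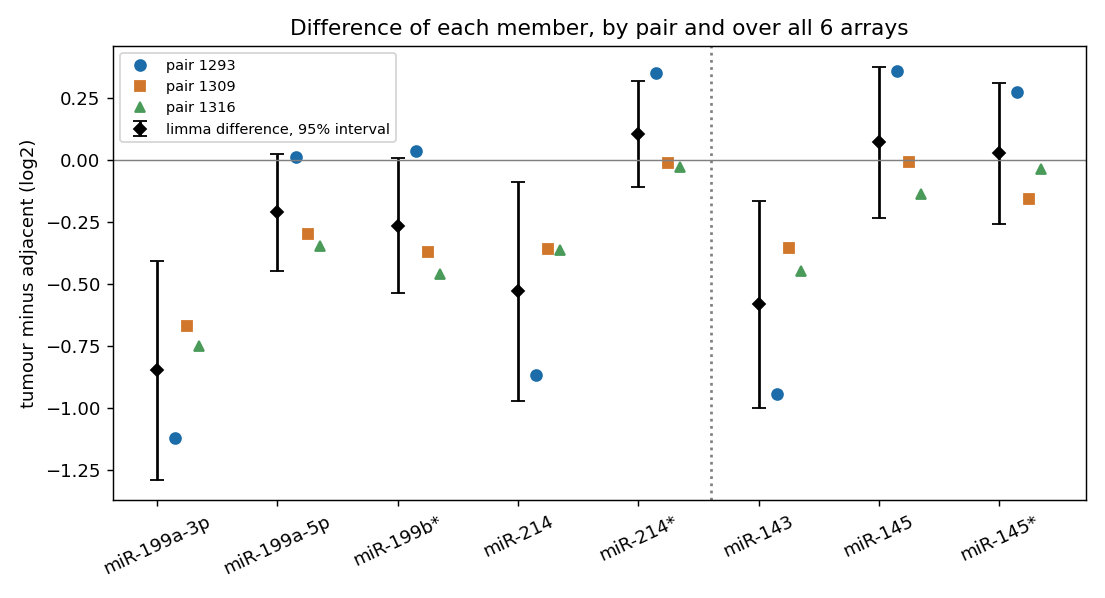
Difference between tumour and adjacent liver on the log2 scale (vertical axis) for each microRNA (horizontal axis), with the limma estimate and its 95% interval in black and the 3 pairs in colour. The dotted line parts the miR-199 and miR-214 entries on the left from the miR-143 and miR-145 entries on the right. The interval lies below 0 for miR-199a-3p, miR-214 and miR-143.

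Leaving out tumour 1293 moved the calls. Without it limma called 5 of the 8 lower (12.2% of all microRNAs were called lower in that fit): miR-199a-3p at -0.65 (limma adjusted p = 0.0040), miR-143 at -0.38 and miR-199a-5p at -0.31 (both 0.0051), miR-199b* at -0.38 (0.0084) and miR-214 at -0.32 (0.013). The differences of miR-199a-3p, miR-143 and miR-214 were smaller than with all arrays, and those of the 5p entries larger. The same 5 were called lower without pair 1293 (background 3.02%), with array weights (12.5%), and with array weights and the replicate block (5.04%). Without tumour 1309 miR-199a-3p alone was called (-0.99, limma adjusted p = 0.033; background 5.32%), and without tumour 1316 or any 1 adjacent piece 0 of the 8 were called. miR-145, miR-145* and miR-214* were not called in any setting that tested them, and in pairs 1309 and 1316 their differences ran from -0.16 to -0.01.

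**Figure D3:**
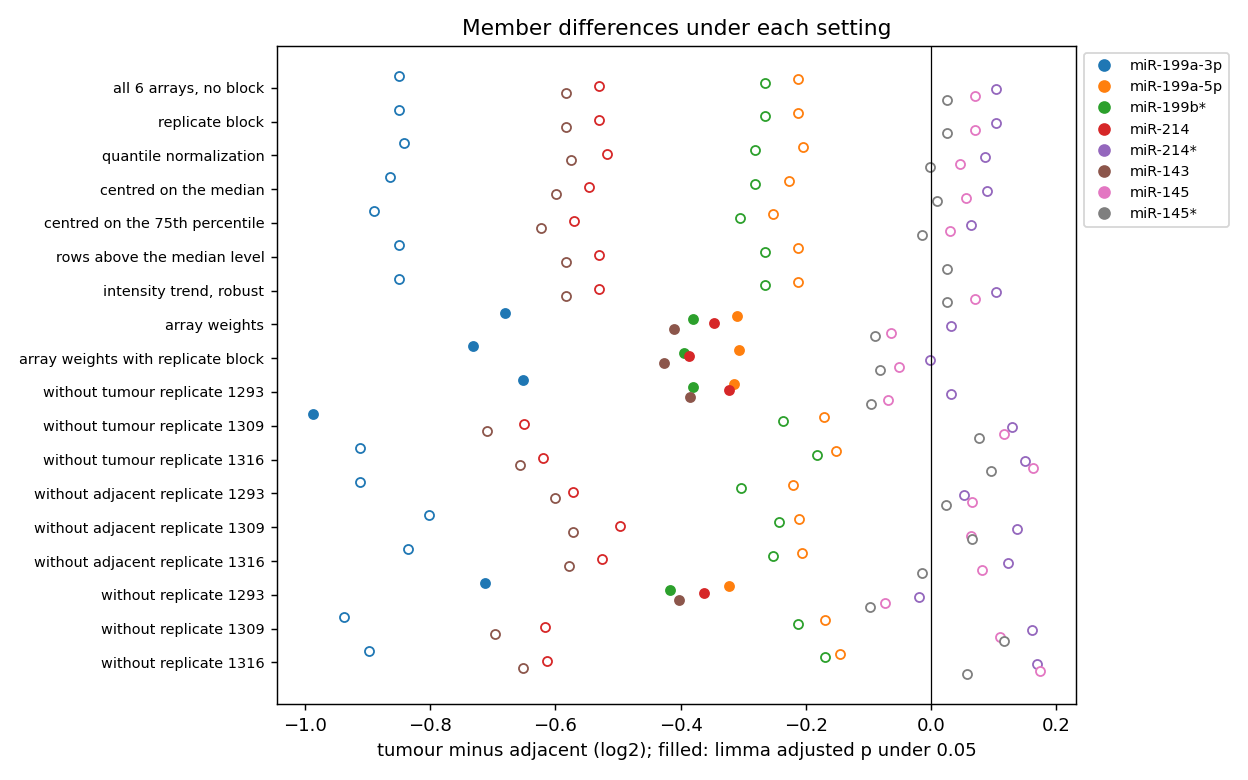
Difference between tumour and adjacent liver on the log2 scale (horizontal axis) of each microRNA under each setting of the fit (vertical axis), filled where limma's adjusted p was below 0.05. Filled points of 5 microRNAs appear in 4 settings, those with array weights, alone or with the block, and those without tumour 1293 or its pair. A single filled point, miR-199a-3p, appears without tumour 1309.

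The second comparison set the clusters and arms against each other. The miR-199 and miR-214 entries had a median difference of -0.27 over all arrays, and of 0.01, -0.36 and -0.37 in pairs 1293, 1309 and 1316. The miR-143 and miR-145 entries had a median of 0.03, and of 0.27, -0.16 and -0.14 in the same pairs. Over all microRNAs the medians were -0.03, and -0.05, -0.04 and -0.03 in the pairs. Both clusters thus held entries that were lower in every pair and entries that were not, and in the second cluster, with 3 entries, the median was the value of miR-145*. Without tumour 1293 that median was -0.096, and the median of the miR-199 and miR-214 entries was -0.32.

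Arms can be set against each other within an array, which removes a shift that all values of the array share. It does not remove a shift that varies with brightness. In each contrast of this paragraph the first microRNA was the brighter in adjacent liver, and the differences varied with brightness, as described below. The part of brightness in these contrasts was not tested. The value of miR-199a-3p, which also takes in Mir199b, minus that of miR-199a-5p averaged 1.14 ± 0.10 in adjacent liver and 0.50 ± 0.52 in tumours (SD, n = 3). The change was -1.13, -0.37 and -0.41 in pairs 1293, 1309 and 1316, so the 3p arm was lower relative to the 5p arm in 3 of 3 pairs. For miR-214 minus miR-214* the change was -1.22, -0.35 and -0.34. The same direction was found between neighbours: miR-143 minus miR-145 changed by -1.30, -0.35 and -0.31. In these the largest change was that of pair 1293, and the remaining pairs were near each other.

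Contrasts among the 3 microRNAs that were lower in every pair varied less from pair to pair. Relative to miR-214, miR-199a-3p changed by -0.32 ± 0.07 (SD, n = 3 pairs) on the log2 scale, and relative to miR-143 by -0.27 ± 0.08, with the same sign in each pair. In both, miR-199a-3p was the brighter in adjacent liver. The arms of miR-145 changed by 0.05 ± 0.13 relative to each other, with 1 negative pair. Of 6 such contrasts, 5 had groups that did not overlap, each with p = 0.10 in the two-sided exact permutation test, the smallest value that 3 against 3 arrays allow, and p = 0.12 after Benjamini-Hochberg adjustment over the 6. For miR-145 against miR-145* the exact permutation p was 0.60. The contrasts share members and so are not separate results. How often other pairs of microRNAs give contrasts without overlap was not counted. Since miR-214*, miR-145 and miR-145* lay near the array median, a fall of these arms may go unseen, and a contrast with them is then mostly the change of the brighter partner. In pair 1293, however, miR-214* was higher by 0.35 and miR-145 by 0.36 in the tumour, and these rises enter the contrasts of that pair.

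The pattern over the arrays can be described by sets, made after the values were seen, that followed neither cluster nor hairpin. miR-199a-3p, miR-214 and miR-143 correlated at 0.97 to 0.99 over the 6 arrays, and the other 5 correlated with these at -0.76 to 0.44. Among themselves the other 5 correlated at 0.16 to 0.98, a range that overlaps the one between the sets. In deviations from the group means, in which tumour 1293 weighs most, the first 3 correlated at 0.97 to 0.99, the other 5 at 0.80 to 0.99 among themselves, and the sets at -0.95 to -0.54 with each other. Without tumour 1293, a choice made after seeing the data, miR-199a-3p, miR-214 and miR-143 correlated at 0.97 to 0.999 with miR-199a-5p and miR-199b* over 5 arrays, and at -0.12 to 0.82 with miR-214*, miR-145 and miR-145*. The place of miR-199a-5p and miR-199b* apart from the first 3 thus rested on that array. All arrays share the normalization, and 6 points that hold 1 outlying array give a description and no more. Of all microRNAs, 29.8% were lower in all pairs, as were 3 of the 8. Another 16.1% were higher in pair 1293 and lower in both other pairs, as were the remaining 5.

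**Figure D4:**
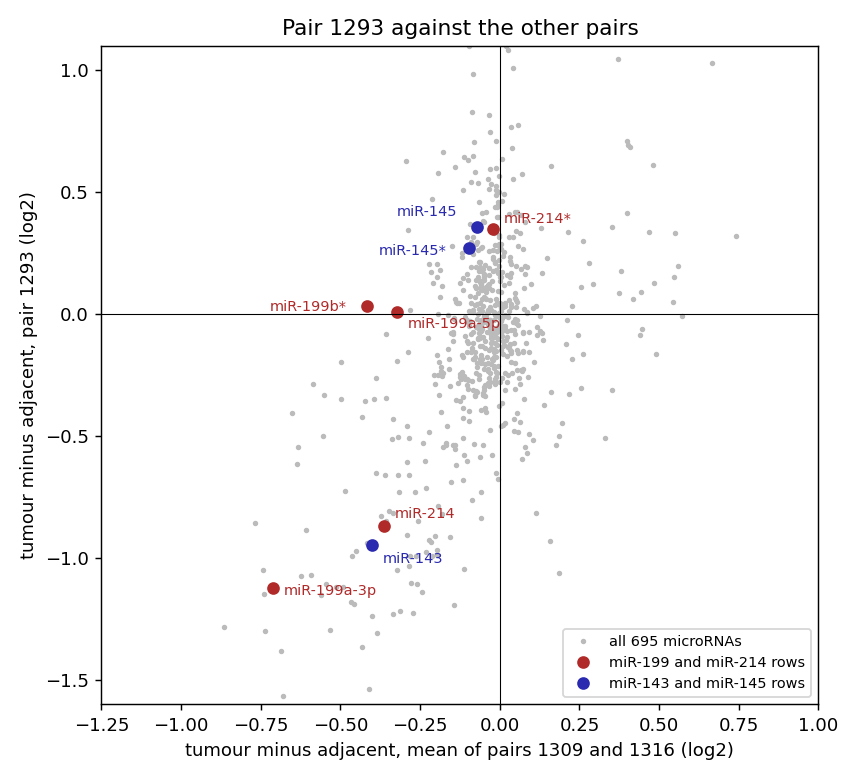
Difference between tumour and adjacent liver in pair 1293 (vertical axis, log2) against the mean difference of pairs 1309 and 1316 (horizontal axis, log2), with all 695 microRNAs in grey apart from 40 that lie outside the axes. miR-199a-3p, miR-214 and miR-143 sit at the lower left, while miR-199a-5p and miR-199b* are near 0 in pair 1293 and lower in the others, and miR-214*, miR-145 and miR-145* are higher in pair 1293 alone.

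The differences varied with brightness. Among the 52 microRNAs between 7.5 and 9 in adjacent liver, the range that holds miR-199a-3p, the median difference was -0.53, with -1.01, -0.25 and -0.37 in pairs 1293, 1309 and 1316. In the 163 between 6.5 and 7.5, where miR-199a-5p, miR-199b*, miR-214 and miR-143 lie, it was -0.15. In the 449 below 6.5, which hold the 3 other members, it was 0.01, and in the 31 above 9, which hold no member, it was -0.37 (-0.35, -0.17 and -0.54 in the pairs). Tumour 1293 was below the mean of the other tumours for 90.4% of the first range, 66.9% of the second, 48.3% of the third and 77.4% of the brightest. These ranges were set after the values were seen, and the part of brightness in the results was not tested.

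The microRNAs with the most similar pattern were sought by Pearson's r over the 6 arrays, among 341 others with a mean above 6.42, the median. For miR-199a-3p these were miR-338-3p, miR-92b, miR-191* and miR-497 (r = 0.989 to 0.995), of which miR-497 is itself counted as mesenchymal. For miR-214 they were miR-30a*, miR-27b, miR-425* and miR-30e, and for miR-143 miR-30e, miR-27b, miR-30d and miR-30a* (r = 0.995 to 0.999 in both). The miR-30 entries, abundant in epithelial cells including hepatocytes, thus came close to 2 members held as stromal, and so did miR-27b, one of the microRNAs known to rise in activated stellate cells. For miR-145 the nearest were miR-574-3p, let-7b*, miR-10b and miR-335-3p (r = 0.98 to 0.99), and each of these was highest in tumour 1293.

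Other microRNAs of mesenchymal cells showed a like picture. The list of 14 further names of fibroblasts, stellate and smooth muscle cells gave 25 microRNAs, of which limma called 0 and 9 were lower at an unadjusted p below 0.05 (0 higher), where 14.1% of all microRNAs were lower. Their median difference was -0.10 against -0.03 over all microRNAs, and -0.16 without tumour 1309. For the 14 of the 25 above the median level it was -0.50, where all microRNAs above that level had -0.10. That background is not matched for brightness. Several of the 14, miR-99a and miR-195 among them, lay between 7.5 and 9 in adjacent liver, where the median over all microRNAs was -0.53. Between 6.5 and 7.5, where others of the 14 lay, it was -0.15. The largest differences were those of miR-99a (-1.005 ± 0.214, SE; limma adjusted p = 0.089) and miR-195 (-0.92 ± 0.24; 0.12). The summed level of the list, on the log2 scale, ran from 11.83 to 11.86 in adjacent liver and from 11.32 to 11.58 in tumours. Without tumour 1293 limma called 10 of the 25 lower and 0 higher (12.2% of all microRNAs lower), and without tumour 1309 it called 3 lower (5.32%).

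MicroRNAs known to change when stellate cells turn into myofibroblasts were taken as separate lists. The 6 names known to rise on activation gave 10 entries, 4 of them passenger arms. Limma called 0 of the 10. At an unadjusted limma p below 0.05, 4 were lower and 1 higher, where 14.1% of all microRNAs were lower. The median was -0.14, and -0.07 without tumour 1293, with the largest differences in miR-31 (-0.92 ± 0.21, SE) and miR-27b (-0.52 ± 0.16). The 1 that was higher was miR-21 (0.50 ± 0.17, SE; limma adjusted p = 0.17), named after its values were seen. How many of all microRNAs were higher at that unadjusted p was not counted, so this entry has no background. The sum of this list ran from 13.10 to 13.51 in adjacent liver and from 13.53 to 13.97 in tumours, and miR-21, the brightest of the 10, carries most of it, with 12.84 to 13.31 in adjacent liver and 13.37 to 13.85 in tumours by itself. The 5 names known to be lowered on activation gave 10 entries of either arm, of which limma called 0. At an unadjusted limma p below 0.05, 1 was lower, again against 14.1% of all microRNAs. The median was 0.01, and -0.016 to -0.0075 without any 1 of the tumours. The largest differences were those of miR-29c (-0.40 ± 0.14, SE), which restrains collagen genes, and miR-335-3p (0.22 ± 0.25). The sum ran from 12.13 to 12.16 in adjacent liver and from 12.03 to 12.18 in tumours. Without tumour 1293 limma called 4 of the first list lower and 1 of the second higher. Of all 695 microRNAs it called 136 in that fit, 85 of them lower (12.2% of all) and the rest higher. Without tumour 1309 it called 2 of the first and 1 of the second lower (5.32% of all).

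Lists for other cells of the liver also had negative medians. The hepatocyte list (7 microRNAs) had a median of -0.45, but of -0.067 once the arrays were quantile-normalized. It was led by miR-101a (-1.19 ± 0.37, SE) and miR-194 (-0.76 ± 0.21). Its sum ran from 15.09 to 15.12 in adjacent liver and from 14.67 to 15.09 in tumours. miR-122, the brightest of the 7, carries most of that sum and differed by -0.11 ± 0.12 (SE; limma adjusted p = 0.66). The leukocyte list (7 microRNAs) had a median of -0.27, which was -0.055 without tumour 1293 and -0.45 without tumour 1316, with miR-146a at -0.59 ± 0.22 and miR-223 at -0.45 ± 0.18 (SE), and sums of 10.07 to 10.27 and 9.62 to 10.14. For the endothelial miR-126-3p and miR-126-5p the differences were -0.12 ± 0.10 and -0.39 ± 0.15, with sums of 10.49 to 10.59 and 10.25 to 10.56. In these 3 lists limma called 0, and 3, 2 and 1 were lower and 0 higher at an unadjusted p below 0.05, a count to be read against the 14.1% of all microRNAs.

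Biliary and other epithelial microRNAs were the only list with calls in the fit of all arrays. Of 9, miR-200a (-0.63 ± 0.11, SE) and miR-200b (-0.57 ± 0.10) fell (limma adjusted p = 0.042 for both), where 0.288% of all microRNAs were called lower. The list's median was -0.16 (-0.13 without tumour 1293), with sums of 9.81 to 9.90 in adjacent liver and 9.48 to 9.66 in tumours. Both calls ended with the replicate block, with the intensity trend, and without tumour 1316, any 1 adjacent piece, pair 1309 or pair 1316. Without pair 1293 limma called 1 of the 9 lower (3.02% of all microRNAs). Erythroid miR-144 and miR-451 were at -0.46 ± 0.23 and -0.16 ± 0.30 (SE), with sums of 9.501 to 10.41 and 9.44 to 10.08. The 7 microRNAs of skeletal and cardiac muscle had a median of -0.09 (-0.03 without tumour 1293), with the largest differences in miR-133a (-0.14 ± 0.08, SE) and miR-208b (-0.12 ± 0.09) and sums of 9.17 to 9.20 and 8.99 to 9.17. Limma called 0 in the erythroid and muscle lists, where 0 had an unadjusted p below 0.05. Without tumour 1293 limma called 2 hepatocyte, 1 leukocyte, 1 endothelial and 3 epithelial microRNAs lower (12.2% of all), and without tumour 1309 it called 4 hepatocyte and 2 epithelial ones (5.32%). The part of the cell makeup in the differences of miR-199a-3p, miR-214 and miR-143 was not tested.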

How the data were processed

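The authors deposited 1 log2 value for each of 695 mature microRNAs on each of 6 Agilent 1-colour arrays, labelled with cyanine 3-pCp per the labels' protocols. RMA and limma stand in the submitters' processing notes, with no version. Base 2 was assumed for the logarithm, since the sources give none and RMA returns base 2. The table held 0 missing values. With no detection calls at hand, presence or absence was not judged. The number of arrays limits the precision.

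Groups came from the tissue labels. Pair numbers came from the titles, and each adjacent piece is labelled by its tumour. For the third tumour the title gives 1316, which was used, and the source label 1306. Deviations from group means correlated at -0.05, 0.07 and -0.003 within the pairs.

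All 695 microRNAs were fitted with limma 3.58.1 in R 4.3.3 (lmFit, eBayes, two-sided, no block). P-values were adjusted by Benjamini-Hochberg, and an adjusted p below 0.05 counted as a call. The code was checked on simulated arrays that had the same SD in both groups and no outlying array. That check does not cover the wider spread of the tumours or an array like that of tumour 1293. Alternatives were the replicate block, quantile normalization, centring on the median or 75th percentile, only microRNAs above the median level, an intensity trend with robust eBayes, array weights alone and with the block, and leaving out each array or pair. Correlations without tumour 1293 were added after seeing the data.

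Text names all members, the 4 most similar microRNAs of miR-199a-3p, miR-214, miR-143 and miR-145, and, for each list, called members or else the 2 largest differences. miR-122, miR-761, miR-126 and miR-451 stand outside that rule or complete a list. Members and lists were chosen with earlier results of these data known. The lists overlap in miR-150, and miR-1 and miR-486 were not matched. Sums over a list add the values on the linear scale. Sequences come from RefSeq (GRCm38.p6), matched by hairpin symbol. Plots were made in Python 3.11.15 with matplotlib 3.10.9.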

Additional observations from a re-analysis of the deposited data

How the results depend on the processing

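Over 17 alternatives, miR-199a-3p, miR-214, miR-143, miR-199a-5p and miR-199b* were lower in tumours throughout, and what changed was whether limma called them. With array weights the differences were -0.68, -0.35, -0.41, -0.31 and -0.38, and with array weights and the replicate block -0.73, -0.39, -0.43, -0.31 and -0.39, all called. With the replicate block alone 0 of the 8 were called (adjusted p = 0.080 for miR-199a-3p and 0.17 for miR-214 and miR-143, at -0.85, -0.53 and -0.58), and that block changed no call of a member. Leaving out arrays or pairs gave -0.99 to -0.65 for miR-199a-3p, -0.65 to -0.32 for miR-214, -0.71 to -0.38 for miR-143, -0.32 to -0.14 for miR-199a-5p and -0.42 to -0.17 for miR-199b*, and 0 to 5 members called lower, against 5 with array weights, with or without the block.

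Members near the array median changed sign. miR-145* was at -0.0016 after quantile normalization, -0.014 after centring on the 75th percentile, -0.090 with array weights, -0.082 with weights and block, and -0.098 to 0.12 without single arrays or pairs. miR-145 was at -0.064 with weights, -0.052 with weights and block, and -0.073 to 0.17 without arrays or pairs. miR-214* was at -0.0025 with weights and block, and -0.020 to 0.17 without arrays or pairs. The median of the miR-143 and miR-145 entries, which is the value of miR-145* in the fit of all arrays, took the same 4 values under the first 4 settings, -0.28 over the 2 entries above the median level, where miR-145 is left out, and -0.098 to 0.11 without arrays or pairs. The contrast of miR-145 with miR-145* ran from -0.0065 to 0.12 without arrays or pairs, and the 5 other contrasts kept their sign in 11 alternatives each.

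Over all microRNAs 12 were called with the replicate block, 138 with array weights, 73 with both, and 9 to 136 without arrays or pairs, against 20. Among the 77 microRNAs on the other lists 0 were called with the block and with the intensity trend, 22 with weights, 13 with weights and block, and 0 to 22 without arrays or pairs, against 2. The cause of these changes was not tested. Values near 6.4 may be background, which limits miR-145, miR-145* and miR-214* most.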
